A study of Mus musculus with 24 samples.

Results

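The Krüppel-like factors followed here were 10 members of the family: Klf2, Klf3, Klf4, Klf5, Klf6, Klf7, Klf9, Klf10, Klf13 and Klf15. They were taken from the bead array by gene symbol, out of 21946 genes with a symbol. The 10 genes had 16 probes, 12 of which were detected, and 8 of the 10 genes had at least 1 detected probe and entered the tests, among 12226 genes tested in all. A probe counted as detected where its signal stood above background (detection p under 0.05) on all 3 arrays of a group, and a gene was called, higher or lower, where its p-value adjusted over all genes was under 0.05. Each gene was read from its brightest detected probe, and its other probes are given beside it.

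The cells came from the aorta-gonad-mesonephros (AGM) region of C57BL/6J mouse embryos at embryonic day 10.5, the tissue around the embryonic aorta in which blood stem cells first form. Dissociated AGM cells were left to attach in microfluidic channels and then kept under wall shear stress (WSS, 5 dyne/cm2) or under static conditions with almost no flow (0.0001 dyne/cm2). They received indomethacin (10 uM), which blocks the cyclooxygenases and so prostaglandin synthesis, or vehicle, and were lysed after 36 h or 6 h. The 8 groups were WSS with indomethacin, WSS with vehicle, static with indomethacin and static with vehicle, each at 36 h and at 6 h, with 3 arrays a group and 24 arrays in all. All groups shared the strain, the stage and a medium made without hydrocortisone, and each sample was a pool of 6 channels of mixed, unsorted cells, non-adherent cells having been washed off before flow began. In such bulk samples, fewer cells of a type and less RNA per cell cannot be told apart. The labels do not say whether replicates came from separate dissections, so each p-value sets a difference against a spread among samples that could be technical.

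Krüppel-like factors are zinc finger transcription factors that bind GC-rich elements and CACCC boxes, and are relatives of the Sp factors. In endothelium, laminar flow is known to act through the kinases MEKK3, MEK5 and ERK5 on MEF2 factors at the KLF2 and KLF4 genes, and KLF2 and KLF4 then raise genes such as NOS3 and THBD and lower inflammatory ones. Klf2 is also known to be needed for vessel stability and for blood stem cell formation downstream of blood flow in zebrafish. Other members have roles outside the vessel wall: Klf5 in epithelia and smooth muscle, Klf3 as a repressor that recruits CtBP proteins, Klf6 in early blood and liver formation, Klf7 in neurons, and Klf9 and Klf15 as glucocorticoid targets.

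The sequence just before the start of each gene is shown for Klf2 and Klf4, the members known to respond to flow, and for Klf3, which was lower under WSS at 6 h in both drug states. RefSeq (GRCm38.p6) gave 250 bases before the start for 8 of the 10 members, with none in the table used here for Klf5 and Klf10. The Klf2 stretch lies at chr8:72318812-72319061 on the plus strand, the Klf4 stretch at chr4:55532476-55532725 on the minus strand and the Klf3 stretch at chr5:64803271-64803520 on the plus strand. Each is written 5′ to 3′ along the gene and ends at the base before the start. Capitals mark a match to the MEF2 consensus in Klf2, an E box (CACGTG) in Klf4 and KLF boxes (CACCC, or GGGTG on the other strand) in Klf3.
Klf2: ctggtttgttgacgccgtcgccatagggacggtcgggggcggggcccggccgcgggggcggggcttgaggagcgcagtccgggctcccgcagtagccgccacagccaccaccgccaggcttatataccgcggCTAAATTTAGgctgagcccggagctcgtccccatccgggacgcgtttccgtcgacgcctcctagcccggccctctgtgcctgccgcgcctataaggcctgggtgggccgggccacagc
Klf4: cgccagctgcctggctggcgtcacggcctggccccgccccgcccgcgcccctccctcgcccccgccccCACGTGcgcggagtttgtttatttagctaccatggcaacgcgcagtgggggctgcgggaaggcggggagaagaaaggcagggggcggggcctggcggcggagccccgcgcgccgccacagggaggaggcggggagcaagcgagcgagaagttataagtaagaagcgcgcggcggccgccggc
Klf3: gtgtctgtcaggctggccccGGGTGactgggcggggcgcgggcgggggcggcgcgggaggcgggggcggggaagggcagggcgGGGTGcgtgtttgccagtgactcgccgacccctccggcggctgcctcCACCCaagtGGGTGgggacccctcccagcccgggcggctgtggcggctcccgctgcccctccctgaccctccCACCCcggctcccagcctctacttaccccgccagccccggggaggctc
The Klf2 match, CTAAATTTAG, lay 118 to 109 bases before the start, and none of the other 7 members with a sequence held a match to this consensus. Of 32851 mouse promoter stretches of the same length, 2.92% held one. The Klf4 stretch held 1 E box, as did that of Klf6, and the Klf15 stretch held 2; 6.02% of all stretches held at least 1. The E box contains the core of the hypoxia element (ACGTG) on both strands, so that the same bases count for both motifs. Klf3 held 5 KLF boxes, Klf7 held 3, and Klf2, Klf9, Klf13 and Klf15 held 1 each, while 52.0% of all stretches held at least 1. The Klf3 stretch was also the richest in G and C of the 8, at 78.4%. All motifs were searched on both strands, and a match is a description of the letters, not a site shown to be used.

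The arrays detected 41.3% to 48.9% of their probes, and arrays of the same group correlated at 0.98 to 0.993 over detected probes. Before normalization, the mean signal averaged 543 under WSS and 410 in static cells at 6 h, and 534 and 475 at 36 h. Every array differed from every other. The number of arrays limits the precision, and values are normalized log2 signals unless another scale is named. Of the markers of the labelled tissue, Runx1, Gata2 and Pdgfra were detected on all 24 arrays. The endothelial markers were dim: Cdh5 was detected on at most 20 arrays, Kdr on 18 and Pecam1 on 15, and Erg and Tie1 in no group. Ptprc, the pan-leukocyte marker, was detected on 1 array.

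**Figure D1:**
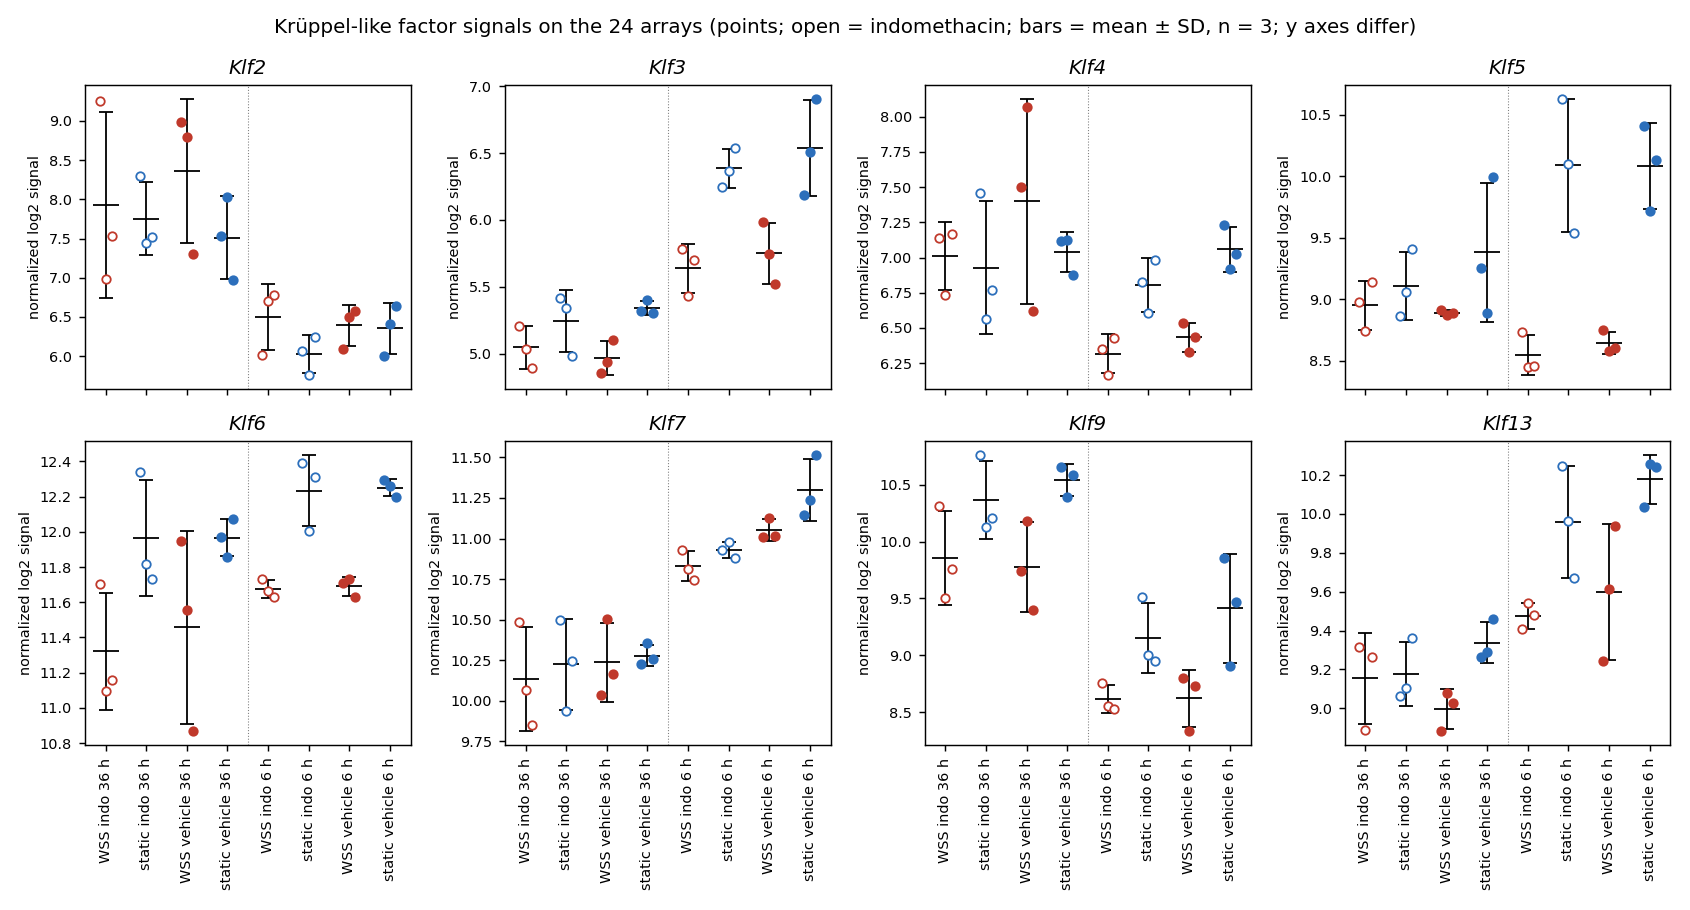
Normalized log2 signal of the 8 tested Krüppel-like factors on each of the 24 arrays, with 36 h left of 6 h and WSS (red) left of static (blue) within each drug state; open points are indomethacin, and bars are the mean ± SD of 3 arrays. Klf2 lies between 6.97 and 9.26 on the 36 h arrays and between 5.76 and 6.78 on the 6 h arrays, and at 6 h every WSS array of Klf3, Klf4 and Klf5 lies below every static array of the same drug state.

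Klf2, the best known flow-responsive member in endothelium, was not called for shear stress in any of the 4 comparisons, and it rose with culture time under both flow states. Its vehicle arrays at 6 h read 6.09, 6.50 and 6.58 under WSS, against 6.01, 6.41 and 6.64 in static cells. Its indomethacin arrays at 6 h read 6.01, 6.70 and 6.78 under WSS, against 6.07, 5.76 and 6.25 in static cells. The groups overlapped in both pairs. The differences were 0.04 ± 0.45 with vehicle (SE; limma, adjusted p = 0.96) and 0.47 ± 0.45 with indomethacin (limma, adjusted p = 0.51), with 95% intervals of -0.90 to 0.97 and -0.46 to 1.41.

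Klf2 at 36 h with vehicle read 8.99, 8.80 and 7.31 under WSS, against 7.53, 8.03 and 6.97 in static cells. Replicates 1 and 2 of WSS stood above every static array, and replicate 3 fell among them. The difference was 0.85 ± 0.45 (1.81-fold; 95% interval -0.08 to 1.79; limma, adjusted p = 0.26), and 1.38 without the low WSS array, replicate 3 (adjusted p = 0.066). Klf2 at 36 h with indomethacin read 9.26, 6.99 and 7.53 under WSS, against 8.29, 7.45 and 7.52 in static cells. Here the first WSS array was the highest of all 24 and the second was the lowest of the 6. The difference was 0.17 ± 0.45 (limma, adjusted p = 0.84), and -0.49 without the high WSS array, replicate 1 (adjusted p = 0.52).

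By time, every 36 h array of Klf2 was above every 6 h array. The rise was 1.70 ± 0.32 under WSS, or 3.25-fold (limma, adjusted p = 0.00015), and 1.44 ± 0.32 in static cells, or 2.71-fold (limma, adjusted p = 0.00051). The rises did not differ past the threshold (difference of the flow effect between times 0.26 ± 0.45, limma, adjusted p = 0.72). In order of group means, the 4 groups of 36 h came first, from 8.36 ± 0.92 in WSS with vehicle to 7.51 ± 0.53 in static with vehicle (SD, n = 3 each). The 4 groups of 6 h followed, from 6.50 ± 0.42 in WSS with indomethacin to 6.03 ± 0.25 in static with indomethacin. Of the 7 pairs of neighbours in this order, 1 did not overlap, the step between the times.

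Klf4, the closest partner of Klf2 in endothelium and also a factor of barrier epithelia, was lower on every WSS array than on any static array at 6 h, and not at 36 h. Vehicle-treated cells at 6 h gave 6.53, 6.33 and 6.43 under WSS, against 7.23, 6.92 and 7.03 in static cells. Indomethacin-treated cells at 6 h gave 6.35, 6.17 and 6.43 under WSS, against 6.83, 6.61 and 6.98 in static cells. Neither pair of groups overlapped, and neither difference passed the threshold: -0.63 ± 0.25 with vehicle (95% interval -1.15 to -0.10; limma, adjusted p = 0.067) and -0.49 ± 0.25 with indomethacin (95% interval -1.01 to 0.04; limma, adjusted p = 0.20). With vehicle it did pass when arrays were scaled by their medians (-0.68, adjusted p = 0.046), when arrays were weighted (-0.64, adjusted p = 0.012), when the fit held the 6 arrays alone (-0.63, adjusted p = 0.0084), and without any 1 of 3 arrays of other groups. With indomethacin it passed with the 6 arrays alone (adjusted p = 0.039).

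Klf4 at 36 h with vehicle read 7.50, 8.07 and 6.62 under WSS, against 7.12, 7.13 and 6.87 in static cells. WSS replicate 3 was the lowest of the 6, and the other WSS arrays were the highest. The difference was 0.36 ± 0.25 (limma, adjusted p = 0.41), 0.75 without WSS replicate 3 (adjusted p = 0.042) and 0.02 without WSS replicate 2. With indomethacin, Klf4 read 7.14, 6.73 and 7.16 under WSS, against 7.46, 6.56 and 6.77 in static cells, a difference of 0.08 ± 0.25 with overlapping groups (limma, adjusted p = 0.87).

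The flow effect on Klf4 was 0.78 ± 0.25 higher at 36 h than at 6 h, averaged over the drug states (limma, adjusted p = 0.031). Over time Klf4 rose by 0.83 ± 0.18 under WSS, or 1.78-fold (limma, adjusted p = 0.00061), with every 36 h array above every 6 h array, and its change in static cells was 0.05 ± 0.18 (limma, adjusted p = 0.81). The difference between times did not pass when probes were averaged (0.57, adjusted p = 0.095) or when no filter on dim probes was used (0.78, adjusted p = 0.052), nor without any 1 of 6 arrays (adjusted p up to 0.060, and a value of 0.61 without replicate 2 of WSS with vehicle at 36 h). A second Klf4 probe, detected on 19 of the 24 arrays and correlated with the first at 0.61, differed by -0.43, -0.25, -0.04 and 0.09 between WSS and static at 6 h with vehicle, 6 h with indomethacin, 36 h with vehicle and 36 h with indomethacin, none of them past the threshold (limma over probes). The Klf4 probes thus disagreed in sign at 36 h with vehicle. The remaining probe was detected on 4 arrays.

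Klf2 and Klf4 correlated over the 12 arrays of 36 h, although the array highest in Klf2 was not the highest in Klf4. Pearson's r was 0.72 (permutation test, 2-sided, p = 0.0072, adjusted p = 0.014 over the 2 times) and Spearman's rho 0.81 (permutation p = 0.0022, adjusted p = 0.0044). These permutations exchanged arrays freely across the 4 groups, which differ in treatment, so their p can be too small. No p was computed for an r with group means taken off, and Klf4 was read from its brightest probe alone. Without the 2 arrays farthest from the median of Klf2, r was 0.87 over 10 arrays, and after each group's mean was taken off it was 0.70 over 12. On the 12 arrays of 6 h, r was -0.30 (permutation p = 0.35) and rho -0.36 (permutation p = 0.25). The replicate number, which paired WSS with static samples within each drug state at 36 h, holds 4 arrays at each time, too few for an r of its own. Over all 18 same-numbered pairs among the 4 groups of 36 h, 12 deviated together above 0.1. The lowest value was -0.18, so the number did not pair all 4 groups. With arrays exchanged only among those of the same number (exact permutation test, 13824 arrangements), r at 36 h had p = 0.038 (adjusted p = 0.075) and rho p = 0.012 (adjusted p = 0.024). After both the group means and the number means were taken off, r at 36 h was 0.59. The call for r is therefore lost with the replicate number held, and that for rho is not.

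Levels of endothelial and immediate early genes varied among the same 12 arrays. The summed linear level of the 6 tested endothelial markers, of 8 listed, was 568, 436 and 240 in WSS with vehicle at 36 h, against 468, 393 and 302 in static with vehicle. It was 393, 310 and 259 in WSS with indomethacin, against 375, 383 and 325 in static with indomethacin. Replicate 3 of WSS with vehicle, the array with low Klf2 and Klf4, had the lowest endothelial sum of the 12. The summed level of 10 immediate early genes was 27352, 30290 and 16626 in WSS with vehicle, against 22820, 25324 and 31170 in static with vehicle, and replicate 3 of WSS was again the lowest of those 6. It was 26472, 15837 and 17519 in WSS with indomethacin, high on the array with high Klf2, against 26971, 21463 and 26276 in static with indomethacin. Replicate 3 of static with vehicle went the other way, with the highest immediate early sum of the 12 arrays and the lowest Klf2. The part of these genes in the Klf2 and Klf4 values was not tested.

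**Figure D2:**
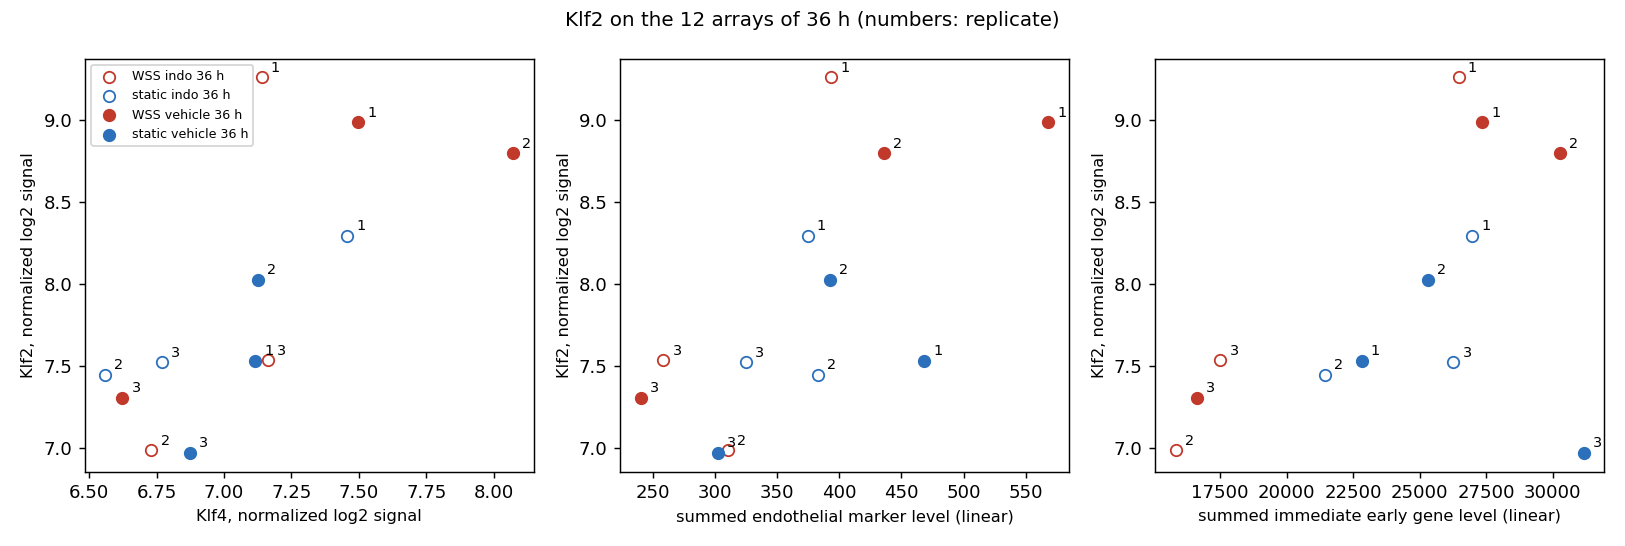
Klf2 (y axis, normalized log2 signal) on the 12 arrays of 36 h against Klf4 (left, normalized log2 signal), the summed linear level of 6 endothelial markers (middle) and that of 10 immediate early genes (right); colours and fills mark the 4 groups and numbers the replicates. Klf2 and Klf4 correlate at 0.72, and replicate 3 of WSS with vehicle lies low on every axis, with a Klf2 value of 7.31, while replicate 3 of static with vehicle has the highest immediate early sum, 31170, and the lowest Klf2, 6.97.

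Klf5, a factor of dividing epithelial cells and of activated smooth muscle, had the largest flow difference of the 8 tested members at 6 h. With vehicle at 6 h it read 8.75, 8.58 and 8.61 under WSS, against 10.41, 9.71 and 10.13 in static cells. With indomethacin at 6 h it read 8.73, 8.45 and 8.45 under WSS, against 10.62, 10.09 and 9.54 in static cells. The groups were apart in both pairs. It fell by 1.44 ± 0.25 with vehicle, a 2.72-fold change (limma, adjusted p = 0.00024), and by 1.54 ± 0.25 with indomethacin, a 2.91-fold change (limma, adjusted p = 0.00026).

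Klf5 at 36 h with vehicle read 8.91, 8.87 and 8.89 under WSS, against 9.25, 8.89 and 10.00 in static cells, a difference of -0.49 ± 0.25 (limma, adjusted p = 0.24). With indomethacin it read 8.97, 8.74 and 9.14 under WSS, against 8.86, 9.06 and 9.41 in static cells, a difference of -0.16 ± 0.25 (limma, adjusted p = 0.73). Over time Klf5 fell by 0.84 ± 0.18 in static cells (limma, adjusted p = 0.00029) and its change under WSS was 0.33 ± 0.18 (limma, adjusted p = 0.13, or 0.011 with the 12 WSS arrays alone). The flow effect was 1.17 ± 0.25 less negative at 36 h than at 6 h (limma, adjusted p = 0.0025), a call that held in every setting and without any single array. All these Klf5 values rest on 1 probe. The other Klf5 probe was detected on 1 array, too dim to be tested, and correlated with the first at 0.02.

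Of 7 listed markers of epithelium, a cell type in which Klf5 is high, 4 were tested. Cdh1, Krt8 and Krt18 did not pass for flow at 6 h or at 36 h. Krt19, a simple epithelial keratin, differed by -1.63 at 6 h with vehicle (limma, adjusted p = 0.015) and by -2.09 with indomethacin (limma, adjusted p = 0.0052). At 36 h Krt19 differed by -1.49 with vehicle (limma, adjusted p = 0.056) and by -2.14 with indomethacin (limma, adjusted p = 0.0066). The summed linear level of the 4 markers at 6 h ran from 1440 to 1784 in WSS with vehicle, against 1789 to 3043 in static with vehicle. It ran from 1031 to 1730 in WSS with indomethacin, against 1716 to 2801 in static with indomethacin. The 36 h arrays were all below these, at most 538 under WSS, against 998 in static cells. Epcam and Pax2 were not detected in any group. The part of these cells in the Klf5 difference was not tested.

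Klf3, a repressor first studied in red cell precursors, was lower under WSS at 6 h in both drug states. With vehicle at 6 h it read 5.98, 5.74 and 5.52 under WSS, against 6.19, 6.51 and 6.91 in static cells. With indomethacin at 6 h it read 5.78, 5.43 and 5.70 under WSS, against 6.24, 6.37 and 6.54 in static cells. The groups were apart both times. It fell by 0.78 ± 0.17 with vehicle, or 1.72-fold (limma, adjusted p = 0.0014), and by 0.75 ± 0.17 with indomethacin, or 1.68-fold (limma, adjusted p = 0.0041).

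Klf3 was near the background at 36 h. It was detected on all 12 arrays of 6 h and on 6 of the 12 of 36 h, with none of the 3 arrays of WSS with vehicle at 36 h above background. There it read 4.86, 4.94 and 5.11, against 5.32, 5.40 and 5.31 in static with vehicle, a measured difference of -0.37 ± 0.17 (limma, adjusted p = 0.17, or -0.55 and adjusted p = 0.040 with median scaling). Set against the lowest detected signal of each array, Klf3 was lower there by at least 1.16-fold in the group means, without an error given. With indomethacin at 36 h it read 5.21, 5.04 and 4.90 under WSS, against 5.41, 5.34 and 4.98 in static cells (-0.20 ± 0.17; limma, adjusted p = 0.48). Over time its measured difference under WSS was -0.69 ± 0.12 (limma, adjusted p = 5.6e-05). With the undetected group at the lowest detected signal of its arrays, and WSS with indomethacin as measured, Klf3 was 1.53-fold lower at 36 h. In static cells it fell by 1.17 ± 0.12 (limma, adjusted p = 2.9e-08). The measured flow difference was 0.48 ± 0.17 less negative at 36 h than at 6 h (limma, adjusted p = 0.041). Signals at the background narrow the 36 h difference, so that this value does not show a smaller flow effect on Klf3 at 36 h. The call was also lost with the authors' processed values (adjusted p = 0.069), with no filter on dim probes (adjusted p = 0.060), with trend and robust moderation (adjusted p = 0.072) and without any 1 of 15 arrays. The single Klf3 probe carries a cDNA accession and is called Klf3 by the array's own annotation.

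Klf6, a widely expressed factor that responds quickly to stress and growth signals, was lower under WSS at 6 h with vehicle and at 36 h with indomethacin, each time close to the threshold. The vehicle values at 6 h were 11.71, 11.73 and 11.63 under WSS, against 12.29, 12.26 and 12.20 in static cells. The indomethacin values at 36 h were 11.70, 11.10 and 11.16 under WSS, against 12.34, 11.82 and 11.73 in static cells. The groups were apart in both pairs, narrowly in the second. It fell by 0.56 ± 0.21 in the first (limma, adjusted p = 0.0455) and by 0.64 ± 0.21 in the second (limma, adjusted p = 0.049).

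The other Klf6 differences were -0.56 ± 0.21 at 6 h with indomethacin (limma, adjusted p = 0.066), or adjusted p = 0.034 with the replicate number as a block, and -0.51 ± 0.21 at 36 h with vehicle (limma, adjusted p = 0.13, or -0.75 and adjusted p = 0.028 without WSS replicate 1). The 6 h call was lost with median scaling (-0.38, adjusted p = 0.17), with probes averaged (-0.38, adjusted p = 0.16) and without any 1 of 11 arrays. The 36 h call was lost with the fit of those 6 arrays alone (adjusted p = 0.12), and without any 1 of 20 arrays, where the largest adjusted p was 0.24. A second Klf6 probe, correlated with the first at 0.71, differed by -0.20 and -0.21 at 6 h, with vehicle and with indomethacin, and by -0.57 and -0.85 at 36 h in the same order, of which the last passed (limma over probes, adjusted p = 0.017). Neither time difference of Klf6 passed: -0.29 ± 0.15 under WSS (limma, adjusted p = 0.10) and -0.28 ± 0.15 in static cells (limma, adjusted p = 0.11), although each passed without any 1 of 2 arrays, with adjusted p from 0.017 to 0.046.

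Klf9, a target of glucocorticoid and thyroid hormone receptors, was lower under WSS at 6 h with vehicle and rose strongly with time. Its 6 h vehicle arrays were at 8.80, 8.33 and 8.73 under WSS, against 9.86, 8.91 and 9.47 in static cells. The groups were apart by a small gap, and Klf9 fell by 0.79 ± 0.25 (limma, adjusted p = 0.0195). Without static replicate 1 the difference was -0.57 (adjusted p = 0.12), without static replicate 3 -0.76 (adjusted p = 0.060), and without WSS replicate 2 -0.65 (adjusted p = 0.090). With indomethacin at 6 h it ran from 8.53 to 8.76 under WSS, against 8.95 to 9.51 in static cells, again apart (-0.54 ± 0.25; limma, adjusted p = 0.14).

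Klf9 at 36 h with vehicle read 9.75, 10.18 and 9.40 under WSS, against 10.66, 10.39 and 10.58 in static cells. The groups were apart, and the difference of -0.77 ± 0.25 had an adjusted p of 0.053 in limma. With the replicate number as a block, which paired these samples across genes, the adjusted p in limma was 0.017. Klf9 itself did not follow that pairing, as replicate 2 was the highest WSS array and the lowest static array. The difference also passed in 5 other settings and without any 1 of 7 arrays. With indomethacin it read 10.31, 9.50 and 9.76 under WSS, against 10.76, 10.13 and 10.21 in static cells (-0.51 ± 0.25; limma, adjusted p = 0.19). Over time Klf9 rose by 1.20 ± 0.17 under WSS, or 2.29-fold (limma, adjusted p = 8.9e-06), and by 1.17 ± 0.17 in static cells, or 2.25-fold (limma, adjusted p = 5.9e-06). Its flow effect differed between the times by 0.03 ± 0.25 (95% interval -0.49 to 0.54; limma, adjusted p = 0.95).

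Klf13, a close relative of Klf9 known from T cells and the heart, was lower under WSS at 6 h. With vehicle at 6 h it read 9.24, 9.61 and 9.94 under WSS, against 10.03, 10.26 and 10.24 in static cells. The groups were apart. It fell by 0.58 ± 0.16 (limma, adjusted p = 0.011), a call lost with median scaling (-0.43, adjusted p = 0.067) and without WSS replicate 1 (-0.40, adjusted p = 0.090). With indomethacin at 6 h it read 9.41, 9.54 and 9.48 under WSS, against 10.25, 9.96 and 9.67 in static cells. The groups were apart again, and it fell by 0.48 ± 0.16 (limma, adjusted p = 0.046), a call lost with median scaling (-0.32, adjusted p = 0.19) and without any 1 of 13 arrays. The differences at 36 h were -0.34 ± 0.16 with vehicle (limma, adjusted p = 0.21) and -0.02 ± 0.16 with indomethacin (limma, adjusted p = 0.95). Over time Klf13 fell by 0.46 ± 0.12 under WSS (limma, adjusted p = 0.0025) and by 0.81 ± 0.12 in static cells (limma, adjusted p = 3.7e-06).

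Klf7, a factor of developing neurons, was not called for flow in any comparison. Its differences were -0.25 ± 0.16 and -0.10 ± 0.16 at 6 h, with vehicle and with indomethacin, and -0.04 ± 0.16 and -0.09 ± 0.16 at 36 h in the same order, and every 95% interval lay between -0.58 and 0.29. It fell over time by 0.75 ± 0.11 under WSS (limma, adjusted p = 1.2e-05) and by 0.86 ± 0.11 in static cells (limma, adjusted p = 1.1e-06). All its values lay between 9.85 and 10.51 at 36 h, against 10.75 to 11.52 at 6 h, so that the times did not overlap. At 6 h with vehicle the flow groups did not overlap either, WSS being the lower. The other Klf7 probes, correlated with the first at 0.92 and 0.97, fell over time too, by 0.64 and 0.79 under WSS and by 0.67 and 0.84 in static cells.

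Klf10, known as a TGF-beta inducible early gene, and Klf15, a glucocorticoid target of liver and muscle, were too dim to test. Klf10 was detected on 5 of the 24 arrays, 1 at 36 h and 4 at 6 h, with values from 4.56 to 5.24. Klf15 was detected on 4 arrays, 3 at 36 h and 1 at 6 h, with values from 4.37 to 5.70. No group had either gene detected on each of its 3 arrays, and a difference in either was not detectable above the background of these arrays.

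Among the 8 tested members, none was called higher under WSS in any of the 4 comparisons. The first comparison, 6 h with vehicle, had 5 of the 8 tested members lower and 0 higher, against 14.3% of all genes lower and 15.1% higher (29.4% either way). With indomethacin at 6 h, 3 of 8 were lower and 0 higher, against 8.34% of all genes lower and 9.45% higher (17.8% either way), and the replicate block called Klf6 as well. With vehicle at 36 h, 0 of 8 passed in limma, against 4.72% of all genes lower and 4.66% higher (9.38% either way). There Klf9 had the smallest adjusted p of the members (0.053, or 0.017 with the replicate block, which calls it), the count ran from 0 to 1 over settings, and Klf3, Klf6 and Klf9 had an unadjusted p under 0.05. With indomethacin at 36 h, 1 of 8 was lower and 0 higher, against 5.78% of all genes lower and 5.05% higher (10.8% either way). Across the alternative settings the count of called members ran from 4 to 6 at 6 h with vehicle and from 2 to 5 at 6 h with indomethacin. Leaving out single arrays gave 3 to 6 and 2 to 4.

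The members' median difference between WSS and static was -0.60 at 6 h with vehicle, beside 0.01 over all genes tested, and -0.51 at 6 h with indomethacin, beside 0.04. The 36 h medians were -0.36 with vehicle, beside 0.03, and -0.12 with indomethacin, beside 0.02. Of the 8 members, 7 had every WSS array below every static array at 6 h with vehicle, all but Klf2, as did 22.6% of all genes. The other counts of such members were 6 at 6 h with indomethacin (17.2% of all genes), 3 at 36 h with vehicle (10.1%) and 1 at 36 h with indomethacin (13.7%). No member had every WSS array above every static array, as 23.3%, 23.1%, 13.9% and 14.2% of all genes had in the same order. The 4 comparisons share no arrays.

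**Figure D3:**
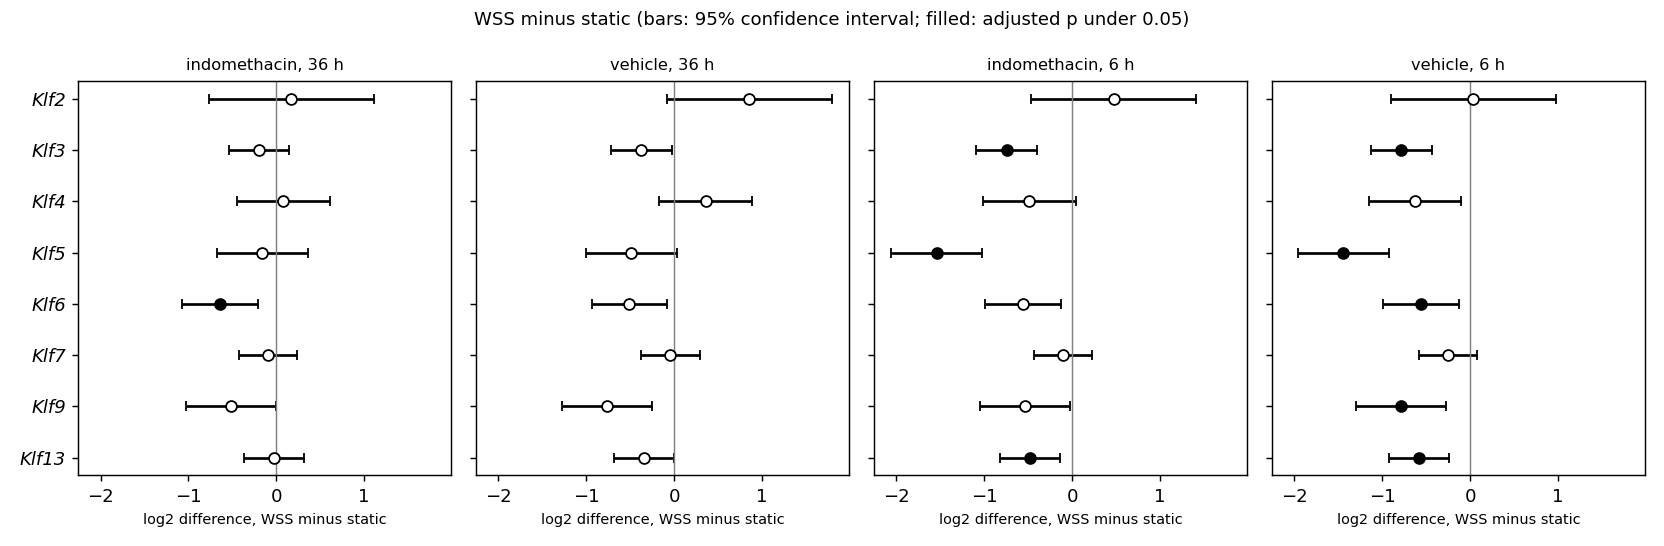
Log2 difference of WSS minus static for the 8 tested Krüppel-like factors in the 4 comparisons, with 36 h left of 6 h and indomethacin left of vehicle; bars are 95% confidence intervals and filled points have an adjusted p under 0.05. Filled points all lie below 0, from -0.48 for Klf13 to -1.54 for Klf5, and Klf2 is the only member at or above 0 in every panel, with intervals that include 0.

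Klf2 and Klf4 were set against the other 6 tested members without a test, because the members were chosen with results known. In vehicle at 6 h, Klf2 differed by 0.04 and Klf4 by -0.63, while the other 6 ran from -1.44 to -0.25 with a median of -0.68. In indomethacin at 6 h, Klf2 differed by 0.47 and Klf4 by -0.49, while the others ran from -1.54 to -0.10 with a median of -0.55. So at 6 h Klf2 lay above all 6 others, while Klf4 lay above 3 of them with vehicle and 4 with indomethacin. In vehicle at 36 h, Klf2 differed by 0.85 and Klf4 by 0.36, while the others ran from -0.77 to -0.04 with a median of -0.43. In indomethacin at 36 h, Klf2 differed by 0.17 and Klf4 by 0.08, while the others ran from -0.64 to -0.02 with a median of -0.18. At 36 h both lay above all 6 others, although without WSS with indomethacin replicate 1 the Klf2 value at 36 h with indomethacin was -0.49.

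The mean of Klf2 and Klf4 exceeded the mean of the other 6 by 0.44 and 0.66 at 6 h, with vehicle and with indomethacin, and by 1.03 and 0.40 at 36 h in the same order. The same score had a pooled SD of 0.38 among arrays of a group. It stayed above 0 in every setting and without any single array, with a low of 0.16 at 36 h with indomethacin. Spread also differed among members. The SD within groups, pooled over all 8, was 0.63 for Klf2 and 0.34 for Klf4, against 0.19 for Klf7 and 0.20 for Klf3 and for Klf13.

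Indomethacin gave no call among the members. Of 8 tested, none passed at 36 h (0.00818% of all genes called) or at 6 h (0% of all genes called), by limma over both flow states. Counts at an unadjusted p under 0.05 were 917 and 613 of 12226 genes at 36 h and 6 h, and other settings called 0 to 7 genes. Among members, Klf7 at 6 h had the smallest unadjusted p, 0.015, with a difference of -0.30 ± 0.11 (limma, adjusted p = 0.89). It read 10.93, 10.81 and 10.75 in WSS with indomethacin and 10.93, 10.98 and 10.88 in static with indomethacin, against 11.01, 11.13 and 11.01 in WSS with vehicle and 11.14, 11.24 and 11.52 in static with vehicle. All 6 of its indomethacin arrays were below all 6 vehicle arrays, as for 0.0736% of all genes, with 0.0736% the other way. The Klf2 difference was -0.09 at 36 h (95% interval -0.76 to 0.57) and -0.11 at 6 h (-0.77 to 0.55). The flow effect differed between drug states for no member and for no gene, with 406 genes at an unadjusted p under 0.05.

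**Figure D4:**
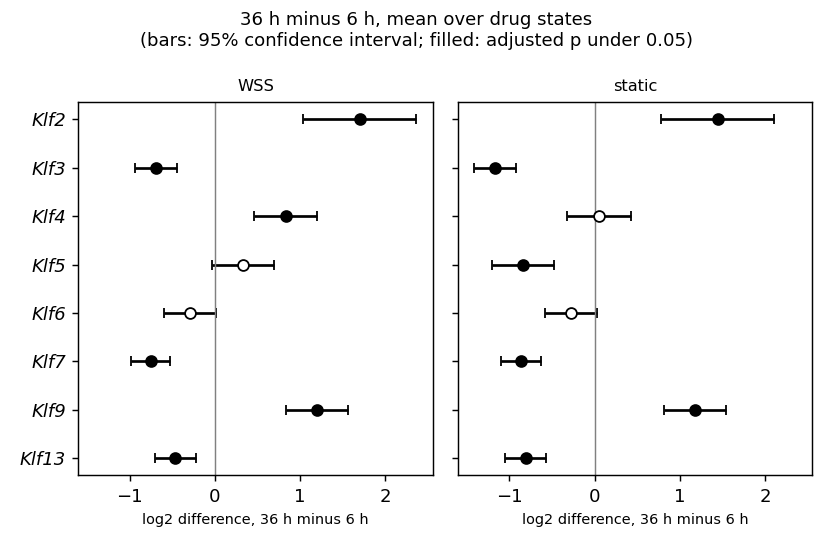
Log2 difference of 36 h minus 6 h for the 8 tested Krüppel-like factors under WSS (left) and in static cells (right), averaged over drug states; bars are 95% confidence intervals and filled points have an adjusted p under 0.05. Klf2 and Klf9 lie above 1 on both sides, Klf4 lies at 0.83 under WSS and 0.05 in static cells, and Klf3, Klf7 and Klf13 lie below 0 on both sides.

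With culture time some members rose and others fell, as genes did in general. Under WSS 3 of 8 members rose (Klf2, Klf4 and Klf9), against 24.4% of all genes, and 3 fell (Klf3, Klf7 and Klf13), against 25.2% (49.7% either way). In static cells 2 rose (Klf2 and Klf9), against 32.5% of all genes, and 4 fell (Klf3, Klf5, Klf7 and Klf13), against 29.6% (62% either way). Over the 8 groups all 8 members passed the moderated F test, beside 72.5% of all genes. The flow effect differed between times for 3 of 8 members, Klf3, Klf4 and Klf5, each less negative or more positive at 36 h, the Klf3 value with the limit of its background given above, while 11.8% of all genes differed in that direction (23.4% in either). With median scaling 37.9% of the genes called for this difference were higher, against 50.4% with quantile normalization, and the count of members ran from 1 to 3 over settings.

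Markers of cell types moved with time as well. Of the tested markers, 7 of 8 mesenchymal ones rose under WSS and 8 of 8 in static cells, while 5 of 5 and 4 of 5 primitive erythroid ones fell, and 4 of 4 epithelial ones fell both times. For flow, 3 of 6 macrophage markers were higher under WSS at 6 h in each drug state and none at 36 h. Of 5 neuronal and neural crest markers 3 were higher under WSS at 36 h in each drug state and none at 6 h, while Klf7 was called in none of these. Of the mesenchymal markers 3 and 0 were lower under WSS at 6 h, with vehicle and with indomethacin, and 4 and 3 at 36 h. Of the epithelial markers Krt19 alone was called for flow, lower under WSS in every comparison but 36 h with vehicle. Endothelial, erythroid and smooth muscle markers gave no call for flow, and blood progenitor markers gave 1 of 4 lower at 6 h with vehicle and 1 of 4 higher at 36 h in each drug state. The part of these cells in the members' values was not tested.

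Of 14 genes of the MEKK3, ERK5 and MEF2 arm and of the CCM complex that restrains it, 11 were tested. With vehicle at 6 h, 2 were higher under WSS, the CCM genes Ccm2 (0.57, adjusted p = 0.038) and Pdcd10 (0.62, adjusted p = 0.015), and 2 were lower, the kinase Map3k2 (-0.96, adjusted p = 0.00079) and the MEF2 corepressor Hdac5 (-0.43, adjusted p = 0.010), all by limma. With indomethacin at 6 h Pdcd10 was higher (0.62, adjusted p = 0.025) and Map3k2 lower (-0.86, adjusted p = 0.0039), and at 36 h none of the 11 passed in either drug state. The 4 calls of 11 with vehicle and 2 of 11 with indomethacin at 6 h stand beside 29.4% and 17.8% of all genes. Map3k3, which encodes MEKK3 itself, differed by -0.01 to 0.13 over the 4 comparisons. Of 12 genes of flow sensing at the endothelial surface, 9 were tested, and none passed for flow. Mapk7, which encodes ERK5, was not detected in any group.

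Of 9 endothelial genes that KLF2 or KLF4 are known to raise, 6 were tested. In each drug state 1 of 6 passed for flow at 6 h, lower under WSS. At 36 h 2 of 6 passed in each, 1 lower and 1 higher. Of all genes, 29.4% and 17.8% passed at 6 h, and 9.38% and 10.8% at 36 h, with vehicle and with indomethacin. Thbd, the anticoagulant receptor thrombomodulin, differed by -1.87 and -1.90 at 6 h and by -1.63 and -1.68 at 36 h, with vehicle and with indomethacin, lower under WSS each time (limma, adjusted p from 0.0011 to 0.010). Ass1, which recycles citrulline for nitric oxide synthesis, was higher under WSS at 36 h, by 1.68 with vehicle (limma, adjusted p = 0.00037) and by 1.40 with indomethacin (limma, adjusted p = 0.0017). Nos3, the endothelial nitric oxide synthase, differed by -0.16 to 0.10, and neither it nor Aqp1, Cyp1b1 or Plpp3 passed in any of the 4. Of 7 genes they lower, 5 were tested, and Angpt2, Ccl2 and Edn1 passed in none of the 4. Adm, a vasodilator peptide that is also a hypoxia gene, differed by -2.15 and -2.66 at 6 h and by -2.09 and -3.30 at 36 h, and Vcam1, a leukocyte adhesion receptor, was higher at 6 h, by 0.99 and 1.00 (limma, adjusted p from 1.3e-05 to 0.0049 for these 6 values).

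Lists tied to other members gave these counts. Of 7 other Krüppel-like factors, 3 were tested (Klf1, Klf12 and Klf16), and none passed for flow. At 6 h with vehicle Klf1 differed by 0.81, with every WSS array above every static array (limma, adjusted p = 0.13). Klf12 differed there by -0.43 and Klf16 by -0.03. At 6 h with indomethacin the 3 differed by -0.17, 0.002 and -0.01. At 36 h Klf1 differed by -0.50 with vehicle and -1.06 with indomethacin. Of 8 Sp factors 6 were tested, with Sp1 lower under WSS at 6 h with vehicle (-0.87, limma, adjusted p = 0.0011) and Sp5 higher at 36 h with vehicle (0.73, limma, adjusted p = 0.0495). Of 11 cofactors and ubiquitin ligases of the family 7 were tested. In vehicle at 6 h the ligase Smurf1 (-1.50, adjusted p = 0.00023) and the acetyltransferase Ep300 (-0.54, adjusted p = 0.0050) were lower and Ctbp2, the corepressor bound by Klf3, was higher (0.54, adjusted p = 0.037), all by limma. Ep300 was also lower at 6 h with indomethacin (-0.47, limma, adjusted p = 0.020), and Fbxw7, a ligase subunit that targets Klf2 and Klf5, was higher at 36 h with vehicle (0.53, limma, adjusted p = 0.031). Of 8 glucocorticoid genes 7 were tested, and 3, 1, 1 and 3 were lower at 6 h with vehicle, at 6 h with indomethacin, at 36 h with vehicle and at 36 h with indomethacin, with none higher. Errfi1, an inhibitor of EGF receptor signalling, was in each of these counts (-0.70 to -0.86), and Fkbp5, of the same list, in none (-0.03 to 0.15). Of all genes, 14.3%, 8.34%, 4.72% and 5.78% were lower in the same order of comparisons. Of 10 TGF-beta response genes 8 were tested, and Skil alone passed for flow, lower at 6 h with vehicle (-0.72, limma, adjusted p = 0.0024).

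Broader programmes moved with flow at the same time as the members that fell. All 8 tested hypoxia genes, of 9 listed, were lower under WSS in each of the 4 comparisons, and their summed linear level at 6 h ran from 4893 to 7158 under WSS, against 30224 to 39264 in static cells. Of 10 immediate early genes, 8 were lower at 6 h with vehicle and 7 with indomethacin, but 1 and 3 at 36 h. Of 10 tested clock genes, a group in which several Krüppel-like factors cycle, 6, 4, 3 and 4 were lower in the same order of comparisons and none higher, with Bhlhe40 at -2.84 and Dbp at -1.57 at 6 h with vehicle. Per1 is in both the clock and the glucocorticoid list. The median difference of the hypoxia genes was -2.40 with vehicle and -2.79 with indomethacin at 36 h, and -2.75 and -2.45 at 6 h. The part of these programmes in the members' values was not tested.

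The genes whose 8 group means were most like those of Klf2, by Pearson's r over the groups, were Pcdha6 (0.996), Hspb3 (0.991) and Adam23 (0.990). For Klf4 they were Krt10 (0.977), Tshz2 (0.976) and Smox (0.966). Within the family the group means of Klf3 and Klf13 were most alike (r = 0.992), and those of Klf2 and Klf7 were most opposed (r = -0.91). Klf2 and Klf4 had an r of 0.67. These values describe 8 points that share the same arrays and the same split by time.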

How the data were processed

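Gene expression was measured on 24 single-colour Illumina bead arrays of AGM cells, from biotinylated cRNA per the labels' protocols. The deposited table holds each probe's intensity, a linear signal that the authors had neither background-subtracted nor normalized, and, per the file headers, a detection p-value. The authors' processed intensities, background-subtracted and quantile normalized as their values show, were also deposited and served as an alternative. The sources used here do not give the software behind either table.

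Signals were background-corrected (normexp, taking the negative controls from the detection p-values), offset by 16, quantile normalized and put on the log2 scale with neqc (limma 3.58.1, R 4.3.3). A probe was detected with a detection p under 0.05 on all 3 arrays of a group, which 21251 of 45281 probes were. Symbols came from GEO's platform table: 35784 probes had 1 symbol and 9497 none, and 28620 symbols were updated by Entrez ID, 2637 by accession and 4527 kept. Each of 12226 genes was read from its brightest detected probe. A single limma fit over the 24 arrays with a mean per group (16 residual degrees of freedom) gave 11 comparisons, with Benjamini-Hochberg adjustment over all genes and a threshold of 0.05. The fit was tested on simulated data. The array relation used 100000 permutations (Python 3.11.15, numpy 2.4.6).

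Groups came from the labels. Same-numbered samples deviated together from their group means in 3 of the flow comparisons, with all 3 pairs at 0.12 to 0.21 (6 h with indomethacin), 0.15 to 0.36 (36 h with vehicle) and 0.12 to 0.15 (36 h with indomethacin), so the replicate number pairs those samples, a pairing taken from the data. Alternatives covered background correction, offset, scaling, the authors' values, the filter, the probe rule, the arrays in the fit, array weights, moderation, the replicate block and each array left out. All members are named; of each list, up to 4 passing genes by size in a comparison, and genes needed as background; and for Klf2 and Klf4 the 3 genes most like them over group means. The members and lists were chosen with earlier results of these data known.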

Additional observations from a re-analysis of the deposited data

Results flagged for a closer look

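Of the 8 tested members, 3 were singled out because their flow effect differed between 36 h and 6 h in the test of that difference. For Klf5, read from its only detected probe, the WSS minus static difference was 1.17 ± 0.25 higher at 36 h than at 6 h (limma, adjusted p = 0.0025). The call held in every setting and without any single array. For Klf4 it was 0.78 ± 0.25 higher (limma, adjusted p = 0.031), a call lost when its probes were averaged (0.57, adjusted p = 0.095), with no filter on dim probes (adjusted p = 0.052) and without any 1 of 6 arrays. For Klf3 the measured value was 0.48 ± 0.17 higher (limma, adjusted p = 0.041), a call lost with the authors' processed values, with no filter on dim probes, with trend and robust moderation and without any 1 of 15 arrays. Klf3 was not above background on 6 of the 12 arrays of 36 h, among them all 3 of WSS with vehicle. Signals at the background narrow the 36 h difference, so that this value does not show a smaller flow effect at 36 h. The cause was not tested.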

How the results depend on the processing

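No result among those recomputed changed sign while past the threshold. Of 944 results of single members under the alternative settings, 908 stayed on their side of the threshold, 19 passed newly and 17 no longer passed. Of 2112 with an array left out, the numbers were 2025, 18 and 69. The genes called for WSS against static at 36 h numbered 123 with vehicle and 710 with indomethacin when the fit held those 6 arrays alone, against 1147 and 1325, and 4881 at 6 h with indomethacin when arrays were weighted, against 2175. For indomethacin against vehicle the count at 36 h was 0, against 1, with array weights, the replicate block, the compared arrays alone, trend and robust moderation, a detection p under 0.01, the authors' processed values, median scaling, an offset of 50, or uncorrected background. At 6 h it was 1 with the authors' processed values and 7 with array weights, against 0. Median scaling moved the share of higher calls at 6 h with indomethacin to 63.1%, against 53.1%.

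With each array left out in turn, calls for WSS against static ran from 2586 to 3694 (6 h, vehicle), 1179 to 2259 (6 h, indomethacin), 608 to 1243 (36 h, vehicle) and 736 to 1400 (36 h, indomethacin). They ran from 8384 to 8880 for the F test, 5562 to 6160 for time under WSS, 7205 to 7647 for time in static cells, 2394 to 2963 for flow by time, 0 to 1 for flow by drug, and for the drug 0 to 5 at 36 h and 0 to 0 at 6 h. The score of Klf2 and Klf4 against the others ran, in the order of the 4 flow comparisons, from 0.38 to 0.50, 0.54 to 0.83, 0.78 to 1.41 and 0.16 to 0.61.

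The replicate block called Klf6 at 6 h with indomethacin and Klf9 at 36 h with vehicle, and changed no other member's call. At 6 h with vehicle, 1 of 3 same-numbered pairs deviated together above 0.1 and 1 correlated best with its own number, and the block gave 3695 calls, against 3593. The fit with the slide as a block was not run, because the files used here name no slide. Signal over background limits Klf3 at 36 h, Klf10 and Klf15. The exchange of arrays within a replicate number for the relation of Klf2 and Klf4, and the floor for Klf3 over time, were chosen after seeing the data; with the first, the adjusted p for r at 36 h was 0.075, against 0.014.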
